A study of Rattus norvegicus with 18 samples.

Results

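The addition of an allochimeric class I peptide to a short cyclosporine course was examined in the T cell samples of rats carrying a heart allograft. The comparison rests on 6 of the 18 arrays of the series, chosen by their titles. They are 3 arrays from recipients given cyclosporine (CsA) plus peptide and 3 from recipients given CsA alone, matched by day 1, 3 or 7 after transplantation. Each combination of treatment and day is 1 array. All recipients carried an intra-abdominal heart. Per the protocols, adult male Wistar Furth (RT1.Au) rats were the donors and ACI (RT1.Aa) rats the recipients. The CsA plus peptide group had 10 mg/kg/day of oral CsA on days 0 to 2 and 1 mg/kg of the peptide [a1h1/u]-RT1.Aa by way of the portal vein during the operation. The CsA group had the same CsA course, which the protocols call sub-therapeutic. No injection is described for it, so the peptide and the portal injection cannot be told apart. The 3 T cell arrays of untreated recipients entered the fit as a further measure of spread and counted in its filter on low signal. They are given last as a background. The labels name neither the organ the T cells came from nor how they were isolated, and the strain label of these arrays is that of the donors, Wistar Furth. Nothing says that the arrays come from separate animals, so the p-values reflect sample-to-sample spread alone, and this spread could be technical.

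Cyclosporine binds cyclophilin, and the complex blocks calcineurin, the phosphatase that lets NFAT transcription factors enter the nucleus of a stimulated T cell and turn on cytokine genes. An allochimeric class I molecule joins parts of the transplantation antigens of different strains, and has been given to graft recipients to modify their response. RNA of a T cell preparation also holds transcripts of any other blood cells in it, each with well-known marker genes: S100a8 and S100a9 for neutrophils, hemoglobins and Alas2 for red cell precursors, Ncr1 and granule genes for natural killer cells.

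T cell markers were bright in each of the 6 arrays, which does not show how pure the samples were. On a scale of linear intensities whose array medians lay between 194.8 and 210.2, the CD3 chain gene Cd3e read 9727, 9938 and 9497 in CsA plus peptide samples on days 1, 3 and 7, against 9624, 9586 and 9739 in CsA samples. Cd3d, another CD3 chain, read 9004, 9769 and 9779 with the peptide and 8497, 8557 and 9639 without it. The co-receptor gene Cd8a read 6968, 7121 and 8146 with the peptide and 7008, 6606 and 7727 without it. The summed intensity of the 22 T cell genes with a probe set was 124896, 127322 and 130369 with the peptide and 123240, 121717 and 129879 without. The heart muscle gene Tnnt2 read 5.47, 18.9 and 17.1 with the peptide and 19.8, 16.9 and 12.8 without it. Markers of some other cells were also read well above the array medians. Among these 6 arrays the lowest reading was 2984 for the B cell gene Ms4a1 (CD20), 6925 for the macrophage gene C1qa and 7107 for the hemoglobin gene Hbb. In bulk RNA, fewer cells of a type and less RNA per cell cannot be told apart.

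No probe set passed the test of the peptide. Of 19464 probe sets tested with limma, 0 (0%) had a Benjamini-Hochberg adjusted p below 0.05, and the smallest adjusted p was 0.888. At an unadjusted p below 0.05 there were 857 probe sets (4.4%), 283 of them higher (1.45%) and 574 lower (2.95%) with the peptide. All values below are therefore given as measured, and none of the genes named passed this test. Differences are log2(intensity + 16) of the CsA plus peptide array minus that of the CsA array of the same day, which understates the change of weak genes. Each mean difference is over 3 days, and its standard error (SE) is that of the fit over 9 arrays. Of the 10446 genes tested, 1668 (16%) were higher with the peptide on each of the 3 days and 779 (7.46%) were lower on each. These shares are the background for the counts of the gene lists. The lists were chosen with earlier results of these data known, so a count set beside this background is a description and not a test. The median of the mean differences was 0.04 over all genes. On days 1, 3 and 7 the median difference over all genes was 0.0041, 0.062 and 0.04. The share of all genes higher on a single day was not counted, so single-day counts of a list lack that background.

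S100a9 and S100a8 were among the neutrophil genes higher with the peptide on every day. S100a9, a subunit of the granulocyte protein calprotectin, read 1264, 1763 and 1892 in CsA plus peptide samples on days 1, 3 and 7, against 514.5, 675 and 884 in CsA samples. Its partner subunit S100a8 read 581, 879 and 855 with the peptide, against 237, 297 and 403 with CsA alone. For each of these genes the lowest of the 3 peptide samples lay above the highest of the 3 CsA samples. The ratio of S100a9 intensities, each + 16, was 2.41, 2.57 and 2.12 on the 3 days, a mean difference of 1.24 ± 0.14 (SD over 3 days). That for S100a8 was 2.36, 2.86 and 2.08, a mean difference of 1.27 ± 0.23 (SD over 3 days).

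**Figure D1:**
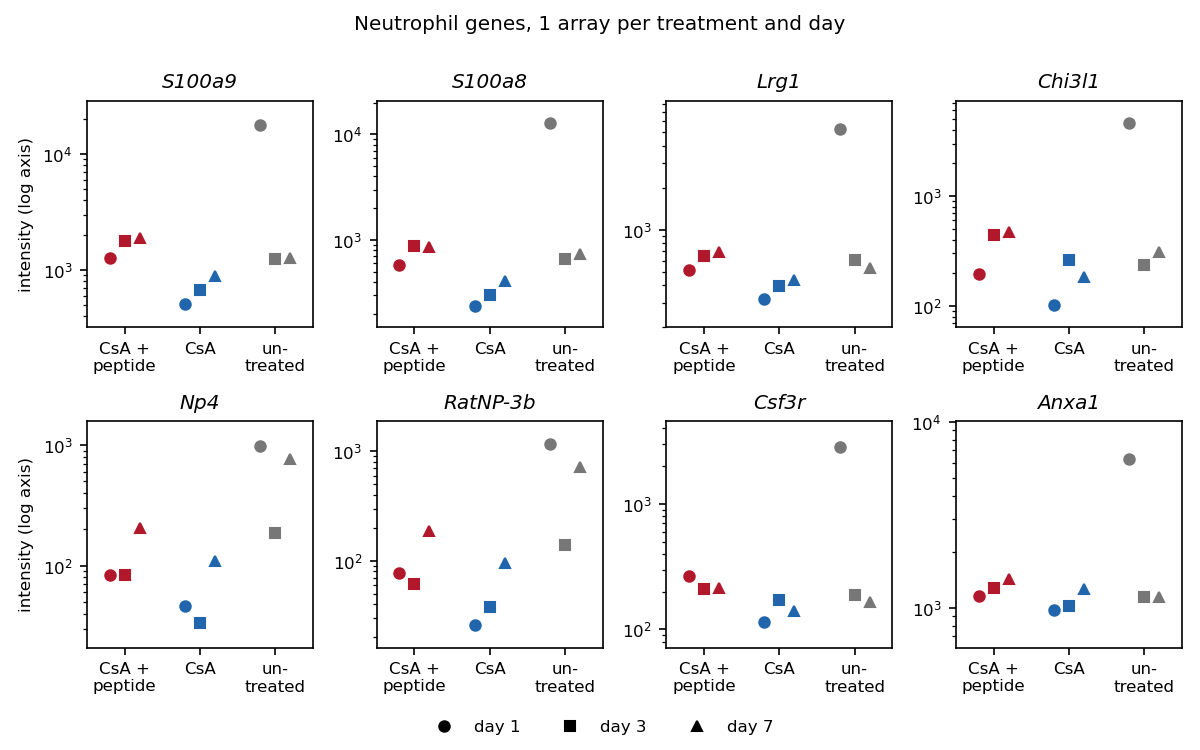
Intensity (log axis) of 8 genes in the 9 T cell arrays, grouped by treatment, with 1 symbol per day. For S100a9 and S100a8 every CsA plus peptide point lies above every CsA point, and the untreated day 1 array stands far above all others.

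The test of these genes depended on the untreated array of day 1. That array read 17770 for S100a9, while the untreated arrays of days 3 and 7 read 1241 and 1279. Its S100a8 reading was 12960, while the later untreated arrays read 662.5 and 733. Because all 9 arrays share 1 estimate of spread, the SE of S100a9 was 0.85 and its limma adjusted p was 0.888. Without that array, a setting chosen after seeing the data, the SE was 0.0861 and the limma adjusted p was 0.0351, the only call among 19295 probe sets. S100a8 had a limma adjusted p of 0.0551 in the same fit. With the 6 CsA plus peptide and CsA arrays alone, the limma adjusted p was 0.119 for S100a9 and 0.255 for S100a8.

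The promoter of S100a9 is shown because this gene carried the only call in any fit of the mean difference. RefSeq places it on the minus strand of the rat GRCr8 assembly, at chr2:178490623-178490872, the 250 bases before the annotated start. Capitals mark matches, on either strand, to TTNNGNAA (a form of the C/EBP motif) and GAGGAA (a core of PU.1 sites), which begin 173 and 209 bases before the start.
S100a9: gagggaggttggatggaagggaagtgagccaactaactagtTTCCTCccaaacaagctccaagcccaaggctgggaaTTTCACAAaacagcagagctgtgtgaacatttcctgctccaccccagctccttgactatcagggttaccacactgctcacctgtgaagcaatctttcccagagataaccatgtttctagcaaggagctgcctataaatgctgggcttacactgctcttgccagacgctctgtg
Of 33469 rat promoters of this length, 37.2% hold TTNNGNAA and 23.3% hold GAGGAA, so a match is a description of the sequence only.

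The other neutrophil genes followed at lower levels. Of 22 genes listed as neutrophil and granulocyte precursor markers, 15 had a probe set and 12 were tested. Of these 12, 8 were higher with the peptide on each day and 0 lower, where all genes had 16% and 7.46%. These counts only describe the 12, as some of them entered through the untreated arrays, where the list was brightest on day 1. The chitinase-like gene Chi3l1 read 194, 446 and 467 with the peptide and 102, 261 and 183 with CsA alone. The defensin Np4 read 83.5, 83.3 and 204.5 with the peptide and 46.2, 33.5 and 109 with CsA alone. The related defensin RatNP-3b read 77.1, 61.4 and 188 with the peptide and 25.9, 37.9 and 95.9 with CsA alone, and since defensin genes are close copies their probe sets may share signal. Np4 and RatNP-3b, which are among the 8, were dim in the compared arrays. They passed the filter on low signal only because the untreated arrays counted in it. The choice of the 12 tested genes thus rests in part on the untreated arrays, and their count without such genes was not taken. The G-CSF receptor gene Csf3r read 264, 209 and 215 with the peptide and 115, 171 and 140.4 with CsA alone. Mmp8, the neutrophil collagenase, differed less, at 155, 179 and 172 with the peptide and 125, 138 and 137 with CsA alone. The lectin gene Fcnb went with no single direction, at 310.3, 228 and 645 with the peptide and 141, 522 and 248 with CsA alone. Outside the list, Lrg1, a leucine-rich glycoprotein of granulocytes, read 513, 644 and 694 with the peptide and 319.7, 398.5 and 433 with CsA alone. Alox5ap, which serves leukotriene synthesis, read 295, 382 and 394 with the peptide and 192.5, 278 and 275 with CsA alone. Lcn2, Cxcr2 and Cebpe of the list were too dim to be tested. Summed over the 15 genes, the intensity was 4570, 5690 and 6687 with the peptide, 2730, 3653 and 3941 with CsA alone and 58358, 4808 and 6420 in untreated samples. Other lists also had members higher on each day. These were 41.7% of 12 tested acute phase genes, 42.9% of 7 dendritic cell genes and 33.3% of 9 plasma cell genes. The neutrophil list's median difference was 0.53. It was -0.04 in the fit without the CsA array of day 1, where the day 1 peptide array is set against the untreated one, 1.06 without the peptide array of day 1, 1.05 without the CsA array of day 3 and 0.91 without that of day 7. In the heart grafts of the same treatments S100a9 differed by 0.50, 0.14 and 1.01 on the 3 days, while the median of the neutrophil list there was 0.04, 0.09 and 0.26 and Chi3l1 differed by 0.28, -0.43 and 0.15.

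Cell division genes were higher with the peptide on day 1, and some of them on each day. Of 35 tested genes of DNA replication and mitosis, 17 were higher with the peptide on all 3 days and 0 lower, against 16% and 7.46% of all genes. An unadjusted p below 0.05 in the limma fit was seen for 13 of them. Over all probe sets, in either direction, the share was 4.4%, and the share over genes was not counted. The list's median difference was 0.51, -0.03 and 0.21 on days 1, 3 and 7, and 34, 17 and 33 of the 35 genes were higher on those days. Ube2c, the ubiquitin-conjugating enzyme of the anaphase-promoting complex, read 904, 1447 and 1716 in CsA plus peptide samples, against 568, 1203 and 1323 in CsA samples and 1072, 1617 and 1603 in untreated samples. The CsA sample of day 1 was the lowest of the 9. The spindle checkpoint kinase gene Bub1 read 467, 695 and 777 with the peptide, 272, 626.5 and 599.8 with CsA alone and 506, 961 and 853 in untreated samples. Its mean difference was 0.42 with an SE of 0.12. Ccnb2, a mitotic cyclin, read 668, 977 and 1355 with the peptide and 388, 928.5 and 1065 with CsA alone. Birc5 (survivin) read 502.5, 752 and 839 with the peptide and 366, 675 and 629 with CsA alone. Tyms, which makes thymidylate for DNA synthesis, read 147, 244 and 339 with the peptide and 95.4, 216 and 229.9 with CsA alone. Gmnn, the replication licensing inhibitor geminin, read 319.5, 495 and 591.5 with the peptide and 170.1, 458 and 442 with CsA alone. Troap, a spindle-associated gene outside the list, read 267, 349 and 478 with the peptide and 101, 263 and 315 with CsA alone, a mean difference of 0.74 with an SE of 0.18. On day 3 many members were near or below the CsA sample. Mki67, the classical proliferation marker, read 888.5 with the peptide and 972 with CsA alone on that day, and the helicase subunit gene Mcm3 read 1316 with the peptide and 1758 with CsA alone. The list's median of the mean differences was 0.24. Without day 1 it was 0.14, with 17 genes higher and 2 lower on both remaining days, and without day 3 it was 0.36, with 32 higher and 0 lower. The day 3 median was 0.02 when arrays were centred on their medians.

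Natural killer and cytotoxic granule genes leaned the other way. Of 20 tested genes of this list, 8 were lower with the peptide on each day and 1 higher, against 7.46% and 16% of all genes. The list's median difference was -0.16, and -0.07 in the fit without the peptide array of day 7. Ncr1, which encodes the natural killer receptor NKp46, read 649, 569.9 and 636 in CsA plus peptide samples, against 814.5, 827 and 1085 in CsA samples and 632, 454 and 917 in untreated samples. All 3 peptide samples lay below all 3 CsA samples. Its mean difference was -0.53 with an SE of 0.15, at an unadjusted p of 0.00874 and a limma adjusted p of 0.888. Klrb1b, a lectin-like receptor outside the list, read 204, 197 and 229.6 with the peptide and 309, 243.5 and 528 with CsA alone. Nkg7, a granule membrane gene, read 3103, 2854 and 4337 with the peptide and 3338, 3729 and 5680 with CsA alone. Perforin (Prf1) read 5518, 5508 and 5179 with the peptide and 5942, 6117 and 6426 with CsA alone. The granzyme gene Gzmk read 3283, 2731 and 4396 with the peptide and 3416, 3292 and 5891 with CsA alone. Eomes, a transcription factor of natural killer and memory CD8 cells, read 953, 993.5 and 1319 with the peptide and 1123, 1130 and 1577 with CsA alone. Ncr3, another natural killer receptor gene, was the 1 member higher each day, at 218, 199.9 and 267 with the peptide and 176, 190.2 and 237 with CsA alone. Granzyme B (Gzmb) read 655, 845 and 1289 with the peptide and 733, 1063 and 1292 with CsA alone, so the day 7 samples were nearly equal.

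**Figure D2:**
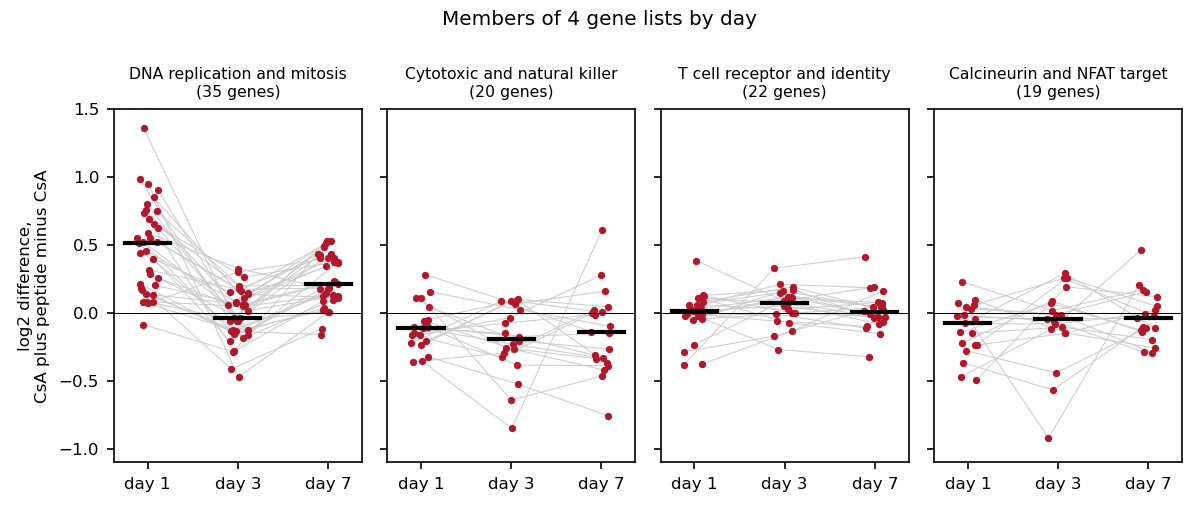
Log2 difference, CsA plus peptide minus CsA, of each tested gene on days 1, 3 and 7 in 4 gene lists, with black bars at the list medians. The cell division genes lie above 0 on day 1 in 34 of 35 cases with a median of 0.51, and the cytotoxic genes have medians below 0 on each day.

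T cell identity genes were close between the groups, and part of the calcineurin-controlled genes were lower with the peptide on each day. Of 22 tested T cell identity genes, 4 were higher and 2 lower with the peptide on each day, and the median difference was 0.03. Cd4 read 652, 795 and 730.5 with the peptide and 799, 897 and 722 with CsA alone. Among 19 tested calcineurin and NFAT target genes, 1 was higher and 6 were lower on each day (31.6%, against 7.46% of all genes), with a median of -0.07. The 1 higher gene was Ctla4, an inhibitory receptor, at 299, 265 and 389 with the peptide and 253, 262 and 343 with CsA alone. Tnfrsf9, the costimulatory receptor 4-1BB, was among the 6, at 164, 137 and 301 with the peptide and 216, 210.4 and 324.5 with CsA alone. So was Xcl1, a chemokine of activated CD8 and natural killer cells, at 1006, 1018 and 1756 with the peptide and 1223, 1387 and 1896 with CsA alone. Its mean difference was -0.28 with an SE of 0.095. The T cell growth factor gene Il2 was too dim to be tested, at 102, 83.9 and 127 with the peptide and 98.4, 111.5 and 144 with CsA alone. Interferon gamma (Ifng) read 175.5, 91.2 and 185 with the peptide and 166, 187 and 159 with CsA alone, in no single direction. The IL-2 receptor chain gene Il2ra read 425.5, 511 and 537 with the peptide and 505, 569 and 529.5 with CsA alone. Of 15 tested components of the calcineurin, NFAT and cyclophilin system, 1 was higher and 3 were lower on each day. The calcineurin catalytic subunit gene Ppp3ca read 2889, 2398 and 2167 with the peptide and 2733, 2917 and 2326 with CsA alone. Of 17 genes of regulation, inhibition and anergy, 2 were higher and 2 lower on each day, and of 11 naive T cell genes 0 were higher and 3 lower (27.3%, against 7.46% of all genes). A share like that of the calcineurin targets was also seen in a list apart from them. Of 15 tested circadian clock genes, 0 were higher and 5 lower on each day (33.3%).

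Several genes outside these lists also differed the same way on all days. Klf7, a Kruppel-like transcription factor, read 194, 146.5 and 83.2 in CsA plus peptide samples, against 297.5, 272 and 246 in CsA samples. Its mean difference was -0.94 with an SE of 0.16 (unadjusted p = 0.000473, limma adjusted p = 0.888). Of its 2 other tested probe sets, 1 had the same sign. Cldn3, a tight junction claudin, read 123, 100.2 and 93.8 with the peptide and 188, 175 and 181 with CsA alone, a mean difference of -0.70 with an SE of 0.13. For each of these genes the highest peptide sample lay below the lowest CsA sample. Untreated samples differed in their place: Klf7 read 302, 280.2 and 219.8 there, near the CsA samples, whereas Cldn3 read 129.7, 118.5 and 99.8, near the peptide samples. Dusp14, a dual-specificity phosphatase, read 119, 94.1 and 111 with the peptide and 164, 144 and 224 with CsA alone. The transcription factor gene Sp4 read 89.6, 70.4 and 102 with the peptide and 143, 109 and 158 with CsA alone. Sp4 was dim and passed the filter on low signal only because the untreated arrays counted in it. The zinc exporter gene Slc30a1 read 220.2, 145 and 167 with the peptide and 288, 228 and 209 with CsA alone. Higher on every day were Dhh, a hedgehog ligand, at 194, 180.1 and 233 with the peptide and 148, 99.6 and 136 with CsA alone, and Nrap, a muscle anchoring protein gene, at 245, 266 and 277 with the peptide and 148, 182.5 and 205 with CsA alone. The urea transporter gene Slc14a2 read 161, 151 and 165 with the peptide and 117, 114 and 119 with CsA alone. The smallest unadjusted p of all belonged to a probe set of Mbnl2, a splicing regulator, named here after its values were seen. It read 281, 279.5 and 254 with the peptide and 482, 473 and 419.9 with CsA alone, at an unadjusted p of 0.00013 and a limma adjusted p of 0.888, and it is not the brightest probe set of that gene.

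**Figure D3:**
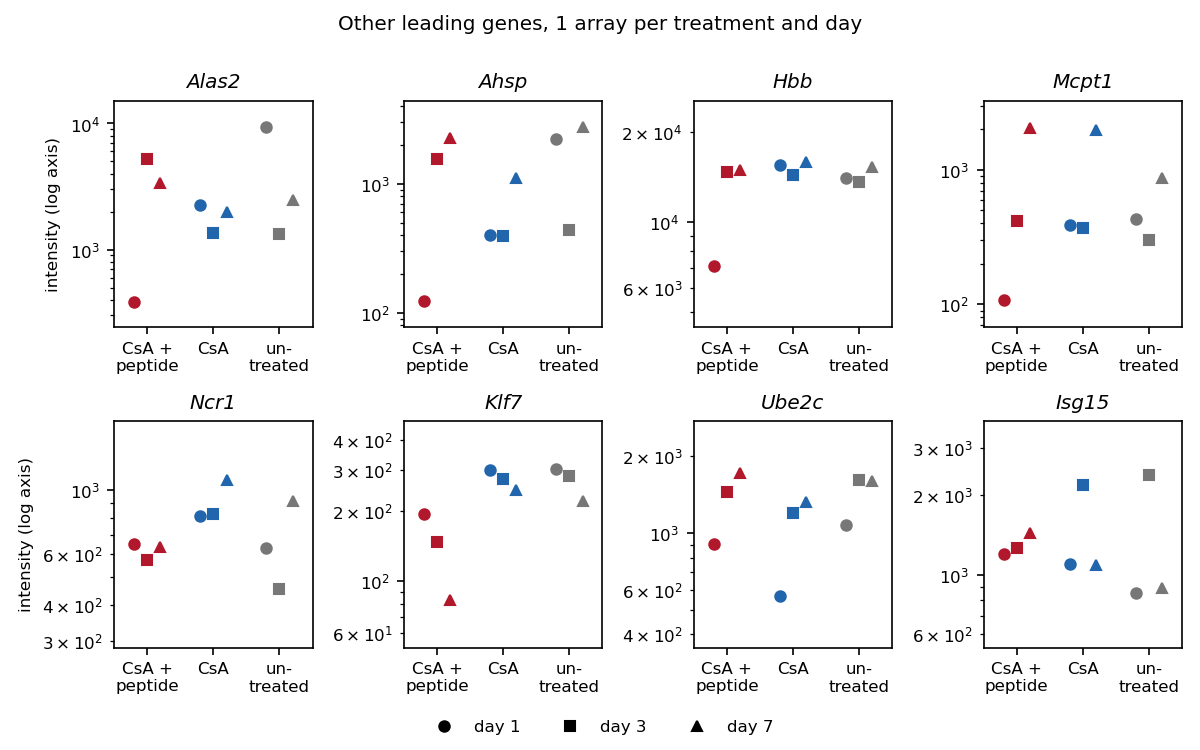
Intensity (log axis) of 8 genes in the 9 T cell arrays, grouped by treatment, with 1 symbol per day. Alas2, Ahsp, Hbb and Mcpt1 are lowest in the CsA plus peptide array of day 1, Ncr1 and Klf7 are lower and Ube2c higher with the peptide on each day, and Isg15 is high on day 3 in CsA and untreated arrays.

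Red cell precursor genes had another order on day 1 than later. Of 18 tested erythroid genes, 13 were lower with the peptide on day 1 and higher on days 3 and 7, against 29.3% of all genes. The list's median difference was -0.64, 1.11 and 0.54 on the 3 days. Alas2, the first enzyme of heme synthesis in red cell precursors, read 387, 5211 and 3366 in CsA plus peptide samples, against 2264, 1365 and 1996 in CsA samples and 9423, 1328 and 2478 in untreated samples. The peptide sample of day 1 was the lowest of the 9, and that of day 3 was below only the untreated sample of day 1. Ahsp, the chaperone of alpha globin, read 124, 1551 and 2249 with the peptide and 403, 395 and 1109 with CsA alone. The hemoglobin gene Hbb read 7107, 14690 and 14910 with the peptide, 15470, 14320 and 15850 with CsA alone and 14060, 13580 and 15300 in untreated samples, so that the day 1 peptide sample stood below all others. Rhd, a Rhesus blood group gene, read 114, 904 and 769 with the peptide and 268, 252 and 416 with CsA alone. The anion exchanger gene Slc4a1 (band 3) read 261, 579 and 509 with the peptide and 306.5, 257 and 375 with CsA alone. Klf1, an erythroid transcription factor, read 152, 459 and 654 with the peptide and 213, 248 and 369.9 with CsA alone. The list's summed intensity was 18495, 42157 and 40212 with the peptide and 31508, 28656 and 34558 with CsA alone. In the heart grafts of the same groups Alas2 differed by -0.89, 1.56 and 0.50 on the 3 days and Ahsp by -0.57, 1.61 and 0.06, while the median of the erythroid list there was -0.15, 0.29 and -0.03.

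A pair of red cell promoters is shown because Alas2 had the widest swing over the days and Hbb the brightest signal of the list. Each is the 250 bases before the RefSeq start in GRCr8. Alas2 lies on the plus strand at chrX:22895200-22895449 and Hbb on the minus strand at chr1:167663722-167663971. Capitals mark matches on either strand to AGATAA (bound by factors such as Gata1) and CACCC (bound by erythroid Kruppel-like factors), which begin 136 and 95 bases before the start.
Alas2: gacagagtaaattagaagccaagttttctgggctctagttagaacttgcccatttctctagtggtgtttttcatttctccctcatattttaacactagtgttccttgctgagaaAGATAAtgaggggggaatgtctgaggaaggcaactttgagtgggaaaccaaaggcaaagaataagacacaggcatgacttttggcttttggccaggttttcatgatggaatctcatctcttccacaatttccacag
Hbb: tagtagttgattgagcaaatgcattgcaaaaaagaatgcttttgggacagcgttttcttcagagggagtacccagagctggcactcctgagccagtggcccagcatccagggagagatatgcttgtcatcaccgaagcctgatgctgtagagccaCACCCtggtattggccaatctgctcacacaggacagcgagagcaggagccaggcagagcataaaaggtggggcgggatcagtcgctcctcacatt
AGATAA was found in Alas2 and CACCC in Hbb, each 1 time, and the S100a9 stretch holds each of them 1 time as well. CACCC was found 0 times in Alas2 and AGATAA 0 times in Hbb. Of the motifs marked in S100a9, TTNNGNAA was found 1 time in Alas2 and 2 times in Hbb. GAGGAA was found 1 time in Alas2 and 0 times in Hbb. Of all promoters 10.3% hold AGATAA and 49.2% hold CACCC.

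Mast cell protease genes were also low in the day 1 peptide sample. Mcpt1 read 108, 419 and 2028 with the peptide and 386, 372 and 1973 with CsA alone. The mast cell carboxypeptidase gene Cpa3 read 120.5, 303 and 915 with the peptide and 255, 293 and 963 with CsA alone. The median difference of the 8 tested genes was -0.68, 0.21 and 0.20 on the 3 days. All 7 tested platelet genes were lower with the peptide on day 1, with a median of -0.24. Whether the cell makeup of the day 1 peptide sample bears on the other day 1 differences was not tested.

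B cell and macrophage genes differed in opposite ways over the days. Of 14 tested B cell genes, 13, 10 and 1 were higher with the peptide on days 1, 3 and 7, and the median differences were 0.34, 0.10 and -0.22. Ms4a1 (CD20) read 5855, 5035 and 2984 in CsA plus peptide samples, against 4197, 4582 and 3766 in CsA samples. Cr2, the complement receptor CD21 of B cells, read 3606, 1723 and 749 with the peptide and 2950, 1895 and 1252 with CsA alone. Of 18 tested macrophage genes, 3, 3 and 18 were higher with the peptide on the 3 days, with medians of -0.25, -0.19 and 0.37. The complement gene C1qb read 4828, 5974 and 6238 with the peptide and 6566, 6529 and 4551 with CsA alone. Cd68, a lysosomal glycoprotein of macrophages, read 2273, 2871 and 3577 with the peptide and 2984, 3402 and 2439 with CsA alone. The high-affinity IgG receptor gene Fcgr1a read 475, 664 and 956 with the peptide and 622, 768 and 569 with CsA alone. Cd5l, a secreted protein of tissue macrophages, read 4271, 5405 and 6939 with the peptide and 5127, 5417 and 4556 with CsA alone. Each of these 4 macrophage genes was lowest on day 1 among the peptide samples and lowest on day 7 among the CsA samples.

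**Figure D4:**
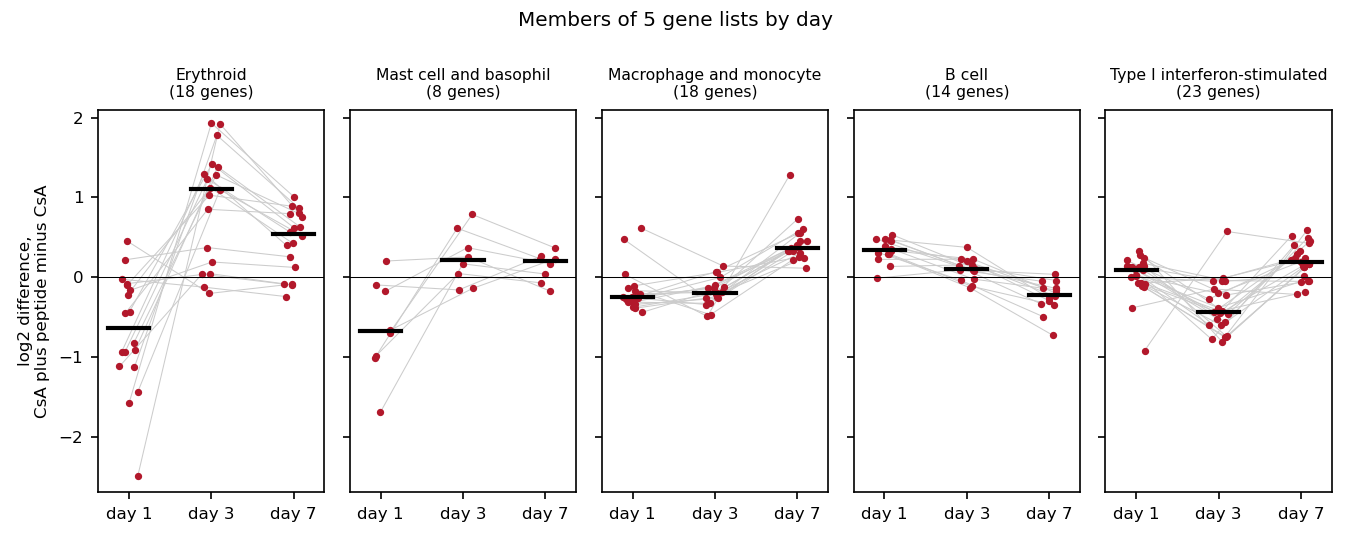
Log2 difference, CsA plus peptide minus CsA, of each tested gene on days 1, 3 and 7 in 5 gene lists, with black bars at the list medians. Erythroid genes have medians of -0.64, 1.11 and 0.54, macrophage genes lie above 0 on day 7, and interferon-stimulated genes have their lowest median on day 3.

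The test of a slope on log2(day) asked whether the difference between the groups varied with time. With limma it called 0 of 19464 probe sets (0%), with a smallest adjusted p of 0.20. At an unadjusted p below 0.05 it counted 3140 (16.1%). Of the 18 macrophage genes 9 were among these, and Cd5l had a slope of 0.302 with an SE of 0.0532. The slope fit had no day block and 3 residual degrees of freedom. Its share is therefore not comparable with the 4.4% of the mean difference, whose fit was blocked by day. Among the genes tested, each at its brightest probe set, the smallest p of the slope belonged to Cd302, a lectin of myeloid cells. Cd302 read 449, 805 and 1134 with the peptide and 710.4, 621.5 and 570.2 with CsA alone. Fabp4, a fatty acid carrier of macrophages and fat cells, read 1250, 1541 and 1919 with the peptide and 2418, 1398 and 1088 with CsA alone. Aif1, a calcium-binding macrophage gene, read 2266, 3523 and 4543 with the peptide and 3264, 3445 and 2609 with CsA alone. Over all 19464 probe sets the daily differences of days 3 and 7 correlated with r = 0.52, those of days 1 and 3 with r = -0.20 and those of days 1 and 7 with r = -0.34, which describes these 6 arrays. Nuclear genes of oxidative phosphorylation shared the order of days: 34 of 44 were lower on day 1 and higher on days 3 and 7, against 29.3% of all genes, with medians of -0.09, 0.18 and 0.15. Array controls varied beside this. The 5S ribosomal RNA probe set read 1063, 1878 and 2536 in CsA plus peptide arrays and 1155, 1032 and 1604 in CsA arrays. The dap control read 903, 1122 and 1369 with the peptide and 998, 801 and 977 with CsA alone. The part of these technical values in the day pattern was not tested.

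Interferon-stimulated genes differed on day 3. Of 23 tested genes, 15, 1 and 18 were higher with the peptide on days 1, 3 and 7, and the median differences were 0.09, -0.43 and 0.19. Over all tested genes the medians of these days were 0.0041, 0.062 and 0.04. The ubiquitin-like Isg15 read 1201, 1258 and 1435 in CsA plus peptide samples, against 1098, 2173 and 1085 in CsA samples and 851, 2370 and 889 in untreated samples. Samples of either other group were highest on day 3, and the peptide samples were not. Usp18, the protease that removes Isg15 from proteins, read 922, 727 and 695 with the peptide and 729, 1284 and 638 with CsA alone. The antiviral gene Mx2 read 1147, 976 and 938 with the peptide and 1041, 1644 and 835 with CsA alone. Rsad2 (viperin) was the exception on day 3, at 605, 2132 and 1448 with the peptide and 1161, 1428 and 1076 with CsA alone. Of 18 tested genes of the interferon gamma response, 3 were higher on day 3, with a median of -0.26. The chemokine gene Cxcl10 read 301 with the peptide and 526 with CsA alone on that day. In the heart grafts Isg15 differed by 0.16, -0.78 and 0.00 on the 3 days, and in T cells by 0.13, -0.78 and 0.40. With 1 array for each treatment and day, a day 3 difference has no replicate.

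**Figure D5:**
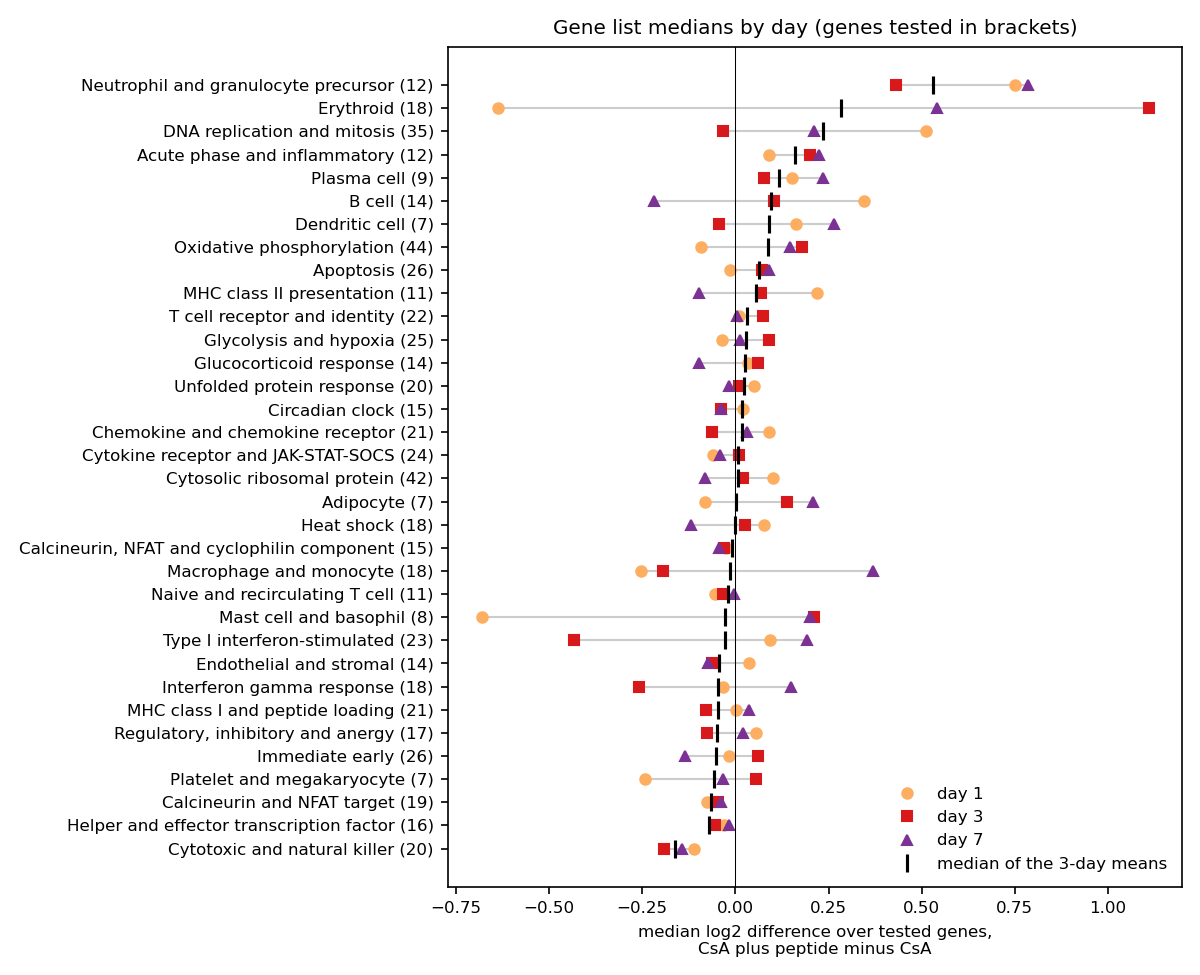
Median log2 difference, CsA plus peptide minus CsA, over the tested genes of each list shown (number in brackets), on days 1, 3 and 7, with a bar at the median of the 3-day means. The neutrophil list lies right of 0 on each day, the cytotoxic list left of 0 on each day, and the erythroid list spans from -0.64 to 1.11. Other lists also keep to 1 side, such as acute phase and plasma cell genes on the right and calcineurin targets on the left.

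Single days held few genes with a difference of at least 2-fold. On day 1, 18 of 10446 genes (0.172%) were at least 2-fold higher with the peptide and 20 (0.191%) at least 2-fold lower. On day 3 the counts were 36 (0.345%) and 14 (0.134%), and on day 7 they were 23 (0.22%) and 14 (0.134%). Lilrb4, an inhibitory receptor of myeloid cells, read 226 with the peptide and 66.1 with CsA alone on day 1. On day 3 Pla2g2a, a secreted phospholipase, read 37.6 with the peptide and 329.7 with CsA alone. The water channel gene Aqp1 of red cells and endothelium read 583 with the peptide and 124 with CsA alone on day 3. The endothelial genes Cd93 and Kdr read 83.2 and 179.5 with the peptide, against 252 and 429 with CsA alone. Of the 14 tested genes of the endothelial and stromal list, 6 were higher on day 3, and the list's median was -0.06. On day 7 the dopamine transporter gene Slc6a3 read 29 with the peptide and 176 with CsA alone, while Gch1, the first enzyme of biopterin synthesis, read 343 with the peptide and 117 with CsA alone. The monocyte receptor gene Cd14 read 443 with the peptide and 173 with CsA alone on day 7.

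Whether the peptide difference in T cells differed from that in the heart grafts was tested as an interaction over all 18 arrays. With limma, 0 of 22327 probe sets (0%) were called, the smallest adjusted p was 0.909, and 1145 (5.13%) had an unadjusted p below 0.05. The cell division list had median differences of -0.37, -0.19 and -0.18 in hearts on days 1, 3 and 7, below 0 on each day. Tyms differed by 0.41 on average in T cells and by -0.25 in hearts, and Ube2c by 0.43 and -0.23. The limma adjusted p of the interaction was 0.909 for each of these genes.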

How the data were processed

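RNA was measured on 1 rat expression array for each tissue, treatment and day. The authors deposited linear intensities per probe set, made from biotin-labelled cRNA per the labels' protocols; software and normalization: not given in the sources used here, and 771 values were below 0. Intensities below 0 were set to 0 and log2(intensity + 16) was taken. Of 31099 probe sets, 57 controls were left out. In the platform annotation 20826 probe sets have 1 gene symbol, 436 several and 9780 none, and 20758 Entrez identifiers matched the RefSeq table. A gene is represented by its brightest probe set.

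Probe sets above the 40th percentile of their array in at least 3 arrays entered limma (version 3.58.1, R 4.3.3), after a check on simulated data. The fit had treatment and day over 9 T cell arrays (4 residual degrees of freedom), trended eBayes and Benjamini-Hochberg adjustment at 0.05. The day in the labels pairs the samples. The tissue interaction used 18 arrays (8 residual degrees of freedom) and the slope 9 arrays (3). Single days were compared without a test. The number of arrays limits the precision.

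The 38 gene lists hold 988 entries, 802 with a probe set. Named genes are the 12 per direction with the widest gap shared by the 3 days, up to 4 members per list by size among those with 1 sign on each day, the 8 largest differences per day and direction, and defining T cell, B cell and calcineurin genes; other list members named here were picked after their values were seen. The comparison, the lists and the rules were chosen with earlier results of these data known. Alternatives varied the samples in the fit, scaling, offset, filter and moderation. Promoters are from RefSeq, GRCr8.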

Additional observations from a re-analysis of the deposited data

Results flagged for a closer look

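For 14 of the genes named here, the CsA plus peptide minus CsA difference had one sign on each day in T cells and the opposite sign on each day in heart grafts. Many of the named genes were chosen for having 1 sign on each day in T cells. The share of all tested genes with such opposite signs was not counted, so the 14 have no background to be read against. This opposition of signs was not tested as such, and limma's test of the tissue interaction called 0 of 22327 probe sets. Among cell division genes, the mean difference in T cells minus that in hearts was 0.88 for Troap, 0.77 for Gmnn, 0.67 for Tyms, 0.66 for Ube2c and 0.58 for Bub1. It was -0.89 for Dnase1, a secreted nuclease, whose T cell readings were 109.7, 109.6 and 88.3 with the peptide on days 1, 3 and 7 and 157, 168 and 120.4 with CsA alone. Dnase1 was dim and passed the filter of the T cell fit only because the untreated arrays counted in it. Among early response genes the T cell minus heart difference was -0.35 for Nr4a1, -0.31 for Maff and -0.22 for Zfp36. The glucocorticoid-responsive Klf9 had -0.32, the clock repressor gene Bhlhe40 -0.17, the chemokine gene Ccl5 -0.15 and the chromatin organizer gene Satb1 -0.12. The lysosomal thiol reductase gene Ifi30 had 0.23.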

How the results depend on the processing

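The call of 0 probe sets for the peptide held under each other setting run except 1: without the untreated array of day 1 it was 1, S100a9 (1.24, SE 0.0861, limma adjusted p 0.0351). The counts at an unadjusted p below 0.05 ran between 174 (without day 3) and 4491 (without day 1, smallest limma adjusted p 0.0511). Day was the block that pairs the samples. With no replicate block, limma called 0 probe sets, and 481 against 857 had an unadjusted p below 0.05. The slope and the tissue interaction called 0 under each setting run, and the smallest limma adjusted p of the interaction was 0.0975 with no trend. Quantile normalization turned the sign of 1 gene, Cd3e (-0.0109, against 0.0103). Leaving out 1 array or day changed the sign of 12 genes, whose differences ran from -0.15 to 1.095 for Alox5ap, -0.20 to 0.69 for Anxa1, -0.091 to 0.0035 for Bhlhe40, -0.22 to 0.0099 for Ccl5, -0.024 to 0.0474 for Cd3e, -0.24 to 0.34 for Cd79b, -0.18 to 1.13 for Csf3r, -0.0778 to 0.26 for Ifi30, -0.65 to 0.18 for Ifng, -0.29 to 0.92 for Mmp8, -0.26 to 0.31 for Ms4a1 and -0.22 to 0.032 for Ppp3ca. The median of the neutrophil list was 0.95 with the filter at the 60th percentile and ran from -0.0351 to 1.06 when arrays or days were left out. That of the cytotoxic list ran from -0.19 to -0.0673. Where 1 array is left out, the remaining array of that day is compared through the other groups, the untreated one included; beyond this the cause was not tested.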
